A study of Mus musculus with 9 samples.

Results

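The tumour necrosis factor (TNF) ligand and receptor superfamily was followed across lists of RelA and RelB binding sites. Members were all autosomal protein-coding genes whose symbol starts with Tnfsf or Tnfrsf, together with Tnf, Lta, Ltb, Fasl, Fas, Cd40, Cd27, Cd70, Ltbr, Ngfr and Relt. This rule gave 42 genes of 21281 in the mm9 annotation, of which 16 encode ligands and 26 encode receptors. The binding sites came from chromatin immunoprecipitation sequencing (ChIP-seq) of mouse embryonic fibroblasts (MEFs) of genotype NfkB2-/-, which lack a working Nfkb2, the gene of p100. Cells were exposed to TNF at 10 ng/ml, RelA (p65) and RelB were each immunoprecipitated at 0 h and 6 h, and each antibody and time has 2 libraries. All 8 libraries carry the NfkB2-/- genotype, so no comparison with wild-type cells is made. Each was called against input chromatin of the same genotype. The series lists a single input library, so the peaks and folds of the 8 libraries share it and are not independent in that respect. The sources used here do not say whether the 2 libraries of a group came from separate cultures, so the tests measure only the spread between these libraries. The lists hold binding sites and no expression values, so fibroblast markers could not be checked.

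TNF superfamily ligands are trimeric proteins, most of them membrane-bound, that are read by receptors with cysteine-rich extracellular domains. Some receptors carry a cytoplasmic death domain and can recruit caspase-activating adaptors, whereas others bind TRAF proteins and activate the canonical or the non-canonical NF-κB pathway. RelA is the main activator released by the canonical pathway, RelB is the partner that p100 holds back in the non-canonical pathway, and genes of the superfamily are themselves well-known NF-κB targets.

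The DNA under the strongest sites is shown first, because the κB motif is what both proteins are known to bind. A site is a region where peaks of the 4 libraries at 6 h overlap, and 12 sites within 50 kb of a family start had a peak in all 4. The sites were searched on both strands for the 10-base κB consensus, which has G at positions 1 and 2, a purine at position 3, any base at positions 4 to 6, pyrimidines at positions 7 and 8 and C at positions 9 and 10. For the strongest such site of each gene, the match in the site nearest to its centre is printed 5′ to 3′ (mm9). The match is in capitals, with 10 bases on either side. A match that fits the consensus on both strands is printed on the plus strand, so its strand label gives no orientation. Of the matches printed, only GGGTTTCCCC fits on the plus strand alone.
Tnfsf14 upstream site, chr17:57371154-57371183, plus strand: aagacagatgGGGGAATTCCtgaacccagt
Tnfrsf1b upstream site, chr4:144844591-144844620, plus strand: tgagtcattcGGGTTTCCCCttctgtgaac
Fas promoter site, chr19:34364937-34364966, plus strand: gtgagtcagtGGGTTTCCCCgggagaccag
Tnfrsf8 intron site, chr4:144866977-144867006, plus strand: aatccctgctGGAAATCCCCtggggctgag
Lta/Ltb/Tnf site, chr17:35311658-35311687, plus strand: cctatctttaGGGACTTTCCaaaagtcacc
Tnfrsf11a intron site, chr1:107698526-107698555, plus strand: cacagtctatGGAAAATCCCccatctgtcc
Ngfr downstream site, chr11:95423907-95423936, plus strand: ctggaaagctGGAAATTCCCtgagcctggc
Tnfsf18 intron site, chr1:163427206-163427235, plus strand: caaatagtcaGGAAAGTCCCtttcttcagt
Tnfsf12/Tnfsf13 site, chr11:69496700-69496729, plus strand: tttttggaatGGGAAATCCCcacccccttt
The Tnfrsf1b upstream site and the Fas promoter site held the same 10 bases. The Tnfrsf17 and Tnfsf15 sites held no match. Within 100 bp of the centre, 9 of the 12 family sites had a match (75%), against 1374 of all 1860 sites with a peak in all 4 libraries (73.9%) and 12.7% of windows of the same length centred 1000 bp away from those sites. For family sites with a peak in 1 library the share was 15 of 28 (53.6%), against 33.7% of 10042 such sites in the series. The window can reach beyond a peak, so some of these matches lay outside it, as at Tnfrsf18. A match describes the letters in the window and does not show which protein was bound there.

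The lists at 0 h were short, with 182 and 194 RelA peaks and 35 and 14 RelB peaks. At 6 h the RelA lists held 7052 and 5688 peaks and the RelB lists 5192 and 6698. Reads inside peaks at 6 h ranged from 120352 to 162105 per library. Total sequencing depth is not given in the files, so the precision of a missing peak is unknown. Of the 25055 peaks in all lists, the smallest had 10 ChIP reads, and a site below the caller's thresholds is not listed.

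At 0 h no peak of any library lay within 50 kb of a family start, and at 6 h 27 of the 42 genes had at least 1. Of all genes, 1.17% had a peak at 0 h and 45.1% had one at 6 h (family 64.3%). In 16 of the 42 genes (38.1%) every one of the 4 libraries at 6 h had more peaks than every library at 0 h, against 12.8% of all genes. These 16 genes reached the smallest p that 4 against 4 libraries allow, 0.0286 (exact permutation test of peak counts, two-sided, both antibodies pooled). After Benjamini-Hochberg adjustment of the permutation p over 21281 genes the smallest value was 0.224, so 0 genes of the series passed 0.05. The 2718 genes with an unadjusted p below 0.05 were all at the smallest p, so the adjustment could not tell genes apart. As every 0 h count of the family was 0, a family gene reached this p by having a peak in each 6 h library.

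**Figure D1:**
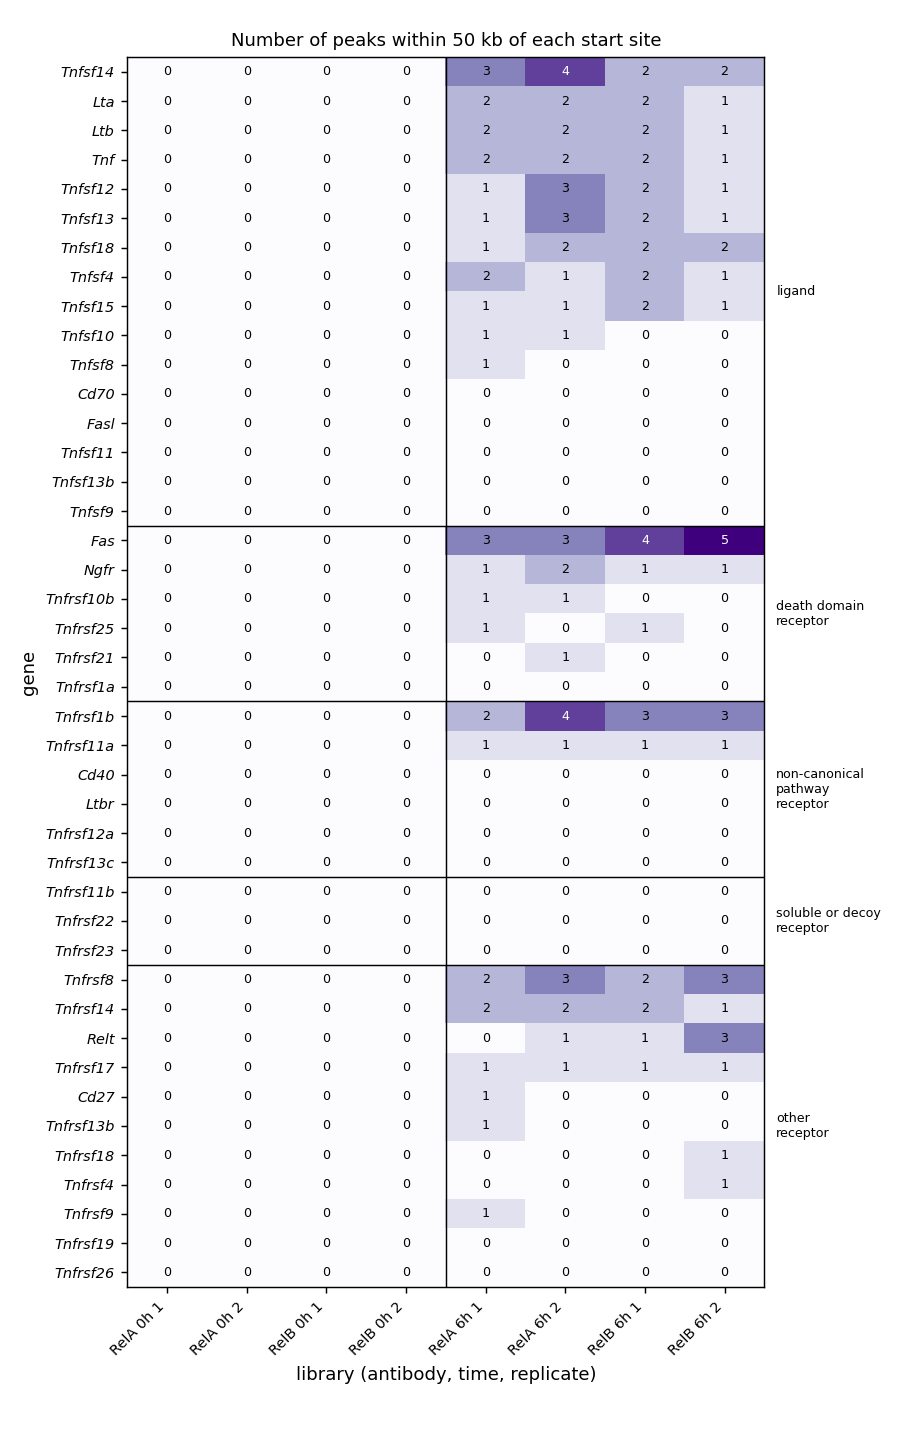
Number of peaks with a centre within 50 kb of the start of each of the 42 family genes (rows, grouped by role) in each of the 8 libraries (columns). All counts at 0 h are 0, Fas and Tnfsf14 have peaks in every 6 h library with up to 5 and 4, and 15 rows are 0 throughout.

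A peak was called reproducible when peaks of both libraries of an antibody at 6 h overlapped by at least 1 bp. A reproducible RelA peak lay within 50 kb of 16 family genes (38.1%), against 13.9% of all genes. A reproducible RelB peak lay within 50 kb of 14 (33.3%), against 14.6% of all genes. Both kinds were found at 12 genes (28.6%, all genes 9.51%), and a site with a peak in all 4 libraries at 14 (33.3%, all genes 10.2%). Of the remaining genes, 4 had a reproducible RelA peak alone (all genes 4.38%) and 2 a reproducible RelB peak alone (all genes 5.12%). A further 9 had peaks that were not reproducible (5556 of all 21281 genes), and 15 had no peak (35.7%, all genes 54.9%).

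These counts depend on how a site is tied to a gene. The 18 genes with a reproducible peak fell into 14 groups that share no site, since Lta, Ltb and Tnf lie side by side on chromosome 17, Tnfsf12 and Tnfsf13 on chromosome 11, and Tnfrsf1b and Tnfrsf8 on chromosome 4. When each site was given only to the gene with the nearest start, 9 family genes kept a RelA peak (all genes 6.52%), 6 a RelB peak (all genes 7.05%) and 5 both (all genes 4.36%).

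A reproducible peak of at least 1 antibody lay within 50 kb of 19% of all genes and of 42.9% of the family. Among ligands, 9 of 16 genes had one, 6 of them for both antibodies. Tnfsf14 (LIGHT, a ligand of the lymphotoxin β receptor) had the strongest site, 37582 bp upstream of its start at chr17:57370709-57371679. Its log2 fold over input was 4.09 in both RelA libraries, and RelB gave 4.09 and 4.0. The antibodies overlapped there, and the mean over the 4 libraries was higher than at 90.5% of the 1860 sites found in all 4. The start nearest to this intergenic site was that of C3, a complement gene, 3635 bp away. A second site, with its centre 5 bp from the C3 start and 33952 bp upstream of Tnfsf14 (chr17:57367236-57367892), had RelA peaks of log2 fold 2.83 and 2.67 and no RelB peak. Another, in a C3 intron 30977 bp upstream of Tnfsf14, had RelB peaks of 3.18 and 3.72 and 1 RelA peak of 3.36.

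Tnf, Lta and Ltb, which encode TNF itself and the subunits of the lymphotoxins, shared a single reproducible site at chr17:35311449-35311807 in an intron of Aif1. It lay 19756 bp upstream of Ltb, 27324 bp downstream of the Tnf start and 30668 bp downstream of the Lta start, and 1385 bp from the start of Aif1, a macrophage-associated gene. The RelA log2 folds were 3.23 and 3.82 and the RelB log2 folds 3.65 and 4.10. The ranges of the antibodies overlapped. No reproducible peak was found at the Tnf promoter, and the other peaks within 50 kb of Tnf were each seen in 1 library.

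Tnfsf12 (TWEAK) and Tnfsf13 (APRIL, a B-cell survival factor) shared a site at chr11:69496205-69497053, centred in exon sequence outside the coding region of Tnfsf13. It was the weakest of the 12, with RelA log2 folds of 2.56 and 2.62 and RelB log2 folds of 2.55 and 3.10, and it lay 1043 bp from the start of Senp3. At Tnfsf15 (TL1A, the ligand of Tnfrsf25), a site 19012 bp into the gene, in exon sequence outside the coding region (chr4:63386922-63387348), had RelA log2 folds of 3.21 and 3.36 and RelB log2 folds of 1.92 and 2.98. Both RelA libraries were above both RelB libraries, and the RelB peaks did not overlap each other, so this gene counted as RelA alone.

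Tnfsf18 (GITR ligand) was called for RelB alone. Its intronic site, 2550 bp downstream of the start at chr1:163427042-163427631, had RelB log2 folds of 3.01 and 3.50 and RelA log2 folds of 2.57 and 2.28. Here both RelB libraries were above both RelA libraries, and the RelA peaks did not overlap each other. A further site 30773 bp upstream had RelB peaks of 2.14 and 2.19 and no overlapping RelA peak. Tnfsf4 (OX40 ligand, a T-cell costimulator) had a RelA site 44334 bp upstream with log2 folds of 3.57 and 3.09. The RelB library of replicate 2 had a peak of 3.06 in it and that of replicate 1 a separate peak of 2.13 beside it, centred 44239 bp upstream. The 4 libraries thus all had a peak at this place although the call was for RelA alone.

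Tnfsf10 (TRAIL) and Tnfsf8 (CD30 ligand) had peaks in single RelA libraries. Cd70, Fasl, Tnfsf11 (RANK ligand), Tnfsf13b (BAFF) and Tnfsf9 (4-1BB ligand) had no peak within 50 kb in any library.

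**Figure D2:**
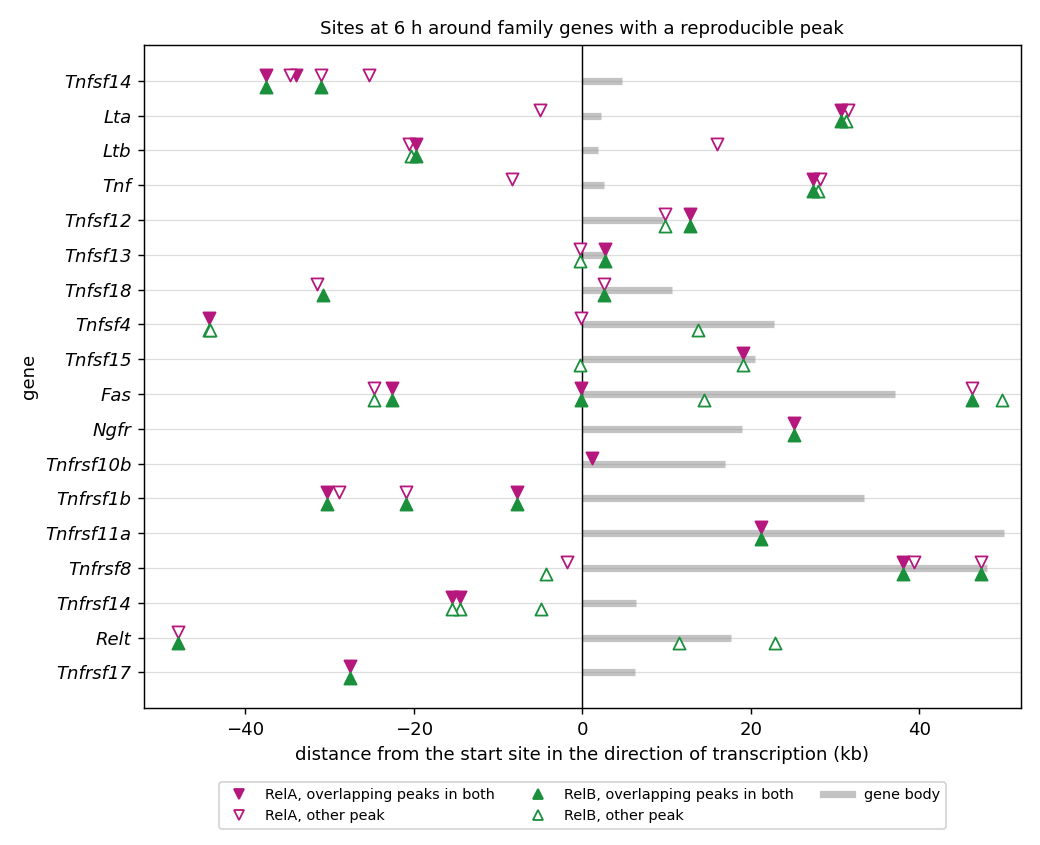
Position of each site at 6 h around the 18 family genes with a reproducible peak, as distance from the start in kb, negative upstream, with RelA as magenta and RelB as green triangles. Filled triangles are overlapping peaks of both libraries, open triangles are other peaks, and grey bars are gene bodies, drawn to at most 50 kb. Of the sites with filled triangles of both antibodies, only that of Fas lies within 1 kb of a family start.

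Among the 6 receptors with a death domain, 3 had a reproducible peak of at least 1 antibody (all genes 19%), namely Fas, Ngfr and Tnfrsf10b. Fas (CD95, the receptor of Fas ligand) had 3 and 3 RelA peaks and 4 and 5 RelB peaks within 50 kb, the most RelB peaks of the family. Its promoter site at chr19:34364767-34365271 was centred 130 bp upstream of the start. The RelA log2 folds were 4.69 and 4.53, from peaks of 79 and 72 ChIP reads, and the RelB log2 folds were 3.27 and 3.10, from peaks of 31 and 35 reads. Both RelA libraries were above both RelB libraries. A second Fas site, 22558 bp upstream at chr19:34342306-34342875 and 12764 bp from the start of Acta2, had RelA log2 folds of 3.91 and 4.0 and RelB log2 folds of 3.18 and 4.0, which overlapped. One more site, centred 46228 bp downstream of the start and beyond the 3′ end of the gene, had RelB peaks of 2.80 and 2.98 and 1 RelA peak of 3.24.

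Ngfr (p75NTR, the low-affinity neurotrophin receptor) had 1 site found in all 4 libraries, 25082 bp downstream of its start and past the end of the gene (chr11:95423637-95424298). The RelB log2 folds of 3.48 and 3.65 were both above the RelA log2 folds of 2.24 and 3.06. Tnfrsf10b (the mouse TRAIL receptor) had an intronic site 1116 bp from its start, at chr14:70168227-70168564, with RelA log2 folds of 2.30 and 2.01 from 18 and 12 ChIP reads and no RelB peak. Its RelA peaks were among the lowest of the reproducible family sites. Tnfrsf25 and Tnfrsf21 had only peaks of single libraries, and Tnfrsf1a, the main receptor for soluble TNF, had none within 50 kb.

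Of the 6 receptors known for activating the non-canonical pathway, Tnfrsf1b and Tnfrsf11a had reproducible peaks of both antibodies (33.3%, all genes 9.51%). The others had no peak (66.7%, all genes 54.9%). Tnfrsf1b (TNFR2, the second TNF receptor) had 2 and 4 RelA peaks and 3 and 3 RelB peaks. Its nearest site, 7810 bp upstream at chr4:144844235-144844931, had RelA log2 folds of 3.91 and 4.0 and RelB log2 folds of 3.81 and 4.15. A site 30244 bp upstream, inside an intron of Tnfrsf8 (CD30) at chr4:144866891-144867144, had RelA log2 folds of 3.91 and 3.58 and RelB log2 folds of 3.58 and 3.81. The antibodies overlapped at both sites. Between them, a site 20952 bp upstream of Tnfrsf1b had RelB peaks of 2.97 and 2.21 and 1 RelA peak of 2.58. Tnfrsf11a (RANK, the osteoclast differentiation receptor) had 1 intronic site 21192 bp from its start, at chr1:107698213-107698772, with RelA log2 folds of 3.31 and 3.53 and RelB log2 folds of 3.73 and 3.31. These again overlapped. Cd40, Ltbr, Tnfrsf12a (the TWEAK receptor) and Tnfrsf13c (the BAFF receptor) were without a peak, as were the soluble or decoy receptors Tnfrsf11b (osteoprotegerin), Tnfrsf22 and Tnfrsf23.

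Of the other 11 receptors, 4 had a reproducible peak of at least 1 antibody (all genes 19%). Tnfrsf17 (BCMA, a plasma-cell receptor) had an intergenic site 27622 bp upstream, at chr16:11286147-11286418, with RelA log2 folds of 3.21 and 3.06 and RelB log2 folds of 3.65 and 3.57. Both RelB libraries were above both RelA libraries. Tnfrsf8 shared the 2 sites described with Tnfrsf1b, both of which lie inside its gene body. Tnfrsf14 (HVEM, the receptor of LIGHT) had 2 neighbouring RelA sites, 14502 and 15527 bp upstream, with log2 folds of 2.99 and 2.73 at the nearer and 3.07 and 2.28 at the farther. RelB replicate 1 had a peak of 3.57 at the nearer site and RelB replicate 2 a peak of 2.23 at the farther one, so neither was reproducible. Relt, an orphan receptor, had a site 47951 bp upstream in an intron of Arhgef17 with RelB peaks of 2.94 and 2.23 and 1 RelA peak of 4.0. Cd27, Tnfrsf13b, Tnfrsf18, Tnfrsf4 and Tnfrsf9 had a peak in 1 library each, and Tnfrsf18 and Tnfrsf4 shared theirs. Tnfrsf19 and Tnfrsf26 had none.

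For the 15 genes without a peak, the nearest site with a peak in all 4 libraries lay between 76.9 kb (Tnfrsf13c) and 1450 kb (Tnfsf13b) from the start, with a median of 337 kb.

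Reproducible sites were next checked for peaks of the other antibody. Of 16 family sites with a reproducible RelA peak, 2 had no RelB peak in either library, the Tnfrsf10b intron and the site at the C3 start, against 15.4% of 2537 such sites in the series. Of 16 with a reproducible RelB peak, 1 had no RelA peak, the site upstream of Tnfsf18, against 19.1% of 3019. As described, 4 of the 6 genes called for 1 antibody alone (Tnfsf4, Tnfsf15, Tnfsf18 and Tnfrsf14) had peaks of the other antibody in both libraries that did not overlap each other.

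For the 1860 sites called in every library at 6 h, RelA and RelB strength was compared by limma on the log2 fold over input, each library centred on its median. The folds come from different antibodies, so a difference in fold need not be a difference in the amount of protein bound. Sites that lacked a peak of 1 antibody, such as the C3 start and the Tnfrsf10b intron, could not enter, so the calls do not cover them. The test called 0.591% of the sites (11, of which 8 were higher for RelA and 3 for RelB; without centring 8, of which 5 and 3), and 313 had an unadjusted p below 0.05. Of the 12 family sites, 1 was called, the Fas promoter. There the RelA fold exceeded the RelB fold by 1.51 on the centred log2 scale (95% interval 0.918 to 2.10). The Benjamini-Hochberg adjusted p in limma was 0.0332. This call was lost without median centring, where the difference was 1.43 and the limma adjusted p 0.0564. It was also lost without RelA replicate 1 (limma adjusted p 0.0957), RelB replicate 1 (0.102) or RelB replicate 2 (0.435), with differences of 1.49, 1.60 and 1.34, and was kept without RelA replicate 2 (0.0192).

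The limma intervals of 3 further family sites excluded 0 before adjustment and their adjusted p did not pass. The difference was 0.917 at Tnfsf15 (95% interval 0.159 to 1.67, adjusted p 0.222), -0.743 at Tnfsf18 (-1.37 to -0.116, adjusted p 0.228) and -0.828 at Ngfr (-1.54 to -0.118, adjusted p 0.237). At the other 8 sites the intervals included 0 and reached from -0.975 at Tnfrsf17 to 1.13 at the upstream Fas site, so differences within those intervals were not excluded. Before centring, both RelA libraries were above both RelB libraries at 2 family sites (19.2% of all sites) and both RelB libraries above both RelA libraries at 3 (29.5% of all sites), and 7 overlapped. The fold takes coarse steps. At 14 of the 48 values behind these 12 sites it was a whole number within 0.001, against 9.38% of all 24630 peaks at 6 h. That share covers all peaks and not only those at sites found in all 4 libraries. The whole-number folds lay at the Tnfsf14 site, the upstream Fas site, and the Tnfrsf1b upstream and Tnfrsf8 intron sites. They were taken as windows without input reads, which was not tested, so near-equal RelA and RelB folds there are equal only within such steps.

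**Figure D3:**
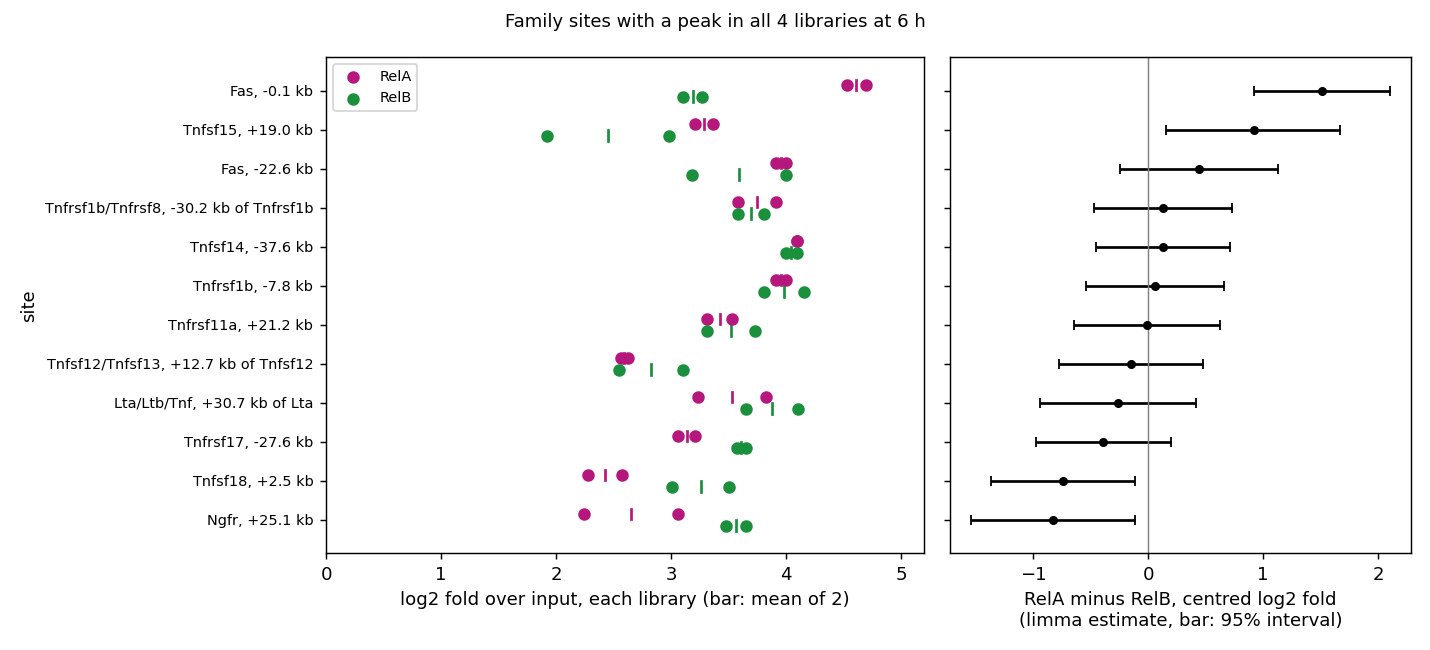
Left, log2 fold over input in each of the 2 RelA (magenta) and 2 RelB (green) libraries at the 12 family sites with a peak in all 4, with bars for the mean of 2. Right, RelA minus RelB after centring with the limma 95% interval. The Fas promoter site, at -0.1 kb, is highest with a difference of 1.51, and at 7 sites the ranges of the antibodies overlap.

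As a group, the 12 family sites had a median log2 fold of 3.58 (mean of 4 libraries per site), against 3.19 over all 1860, and single sites ranged from 2.71 to 4.07. Around the family, 52 distinct sites were found. Of these 23.1% had a peak in all 4 libraries, against 12.6% of 14781 sites in the series, and 53.8% had a peak in 1 library, against 67.9%. By position, 6 of the 12 were intergenic, 4 in introns, 2 in exon sequence outside a coding region and none in coding sequence. The share within 1 kb of a start was 8.33% (1 of 12), against 12% of all 1860. For 8 of the 12 the nearest start was that of a family gene, and for the others it was Acta2, Aif1, Senp3 or C3.

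**Figure D4:**
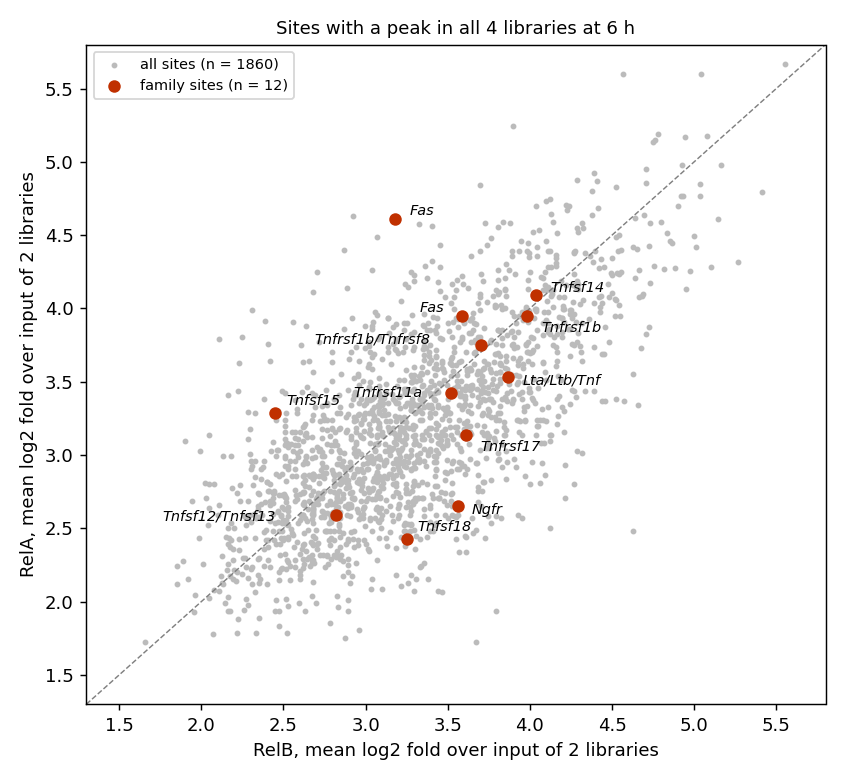
Mean log2 fold over input of the 2 RelA libraries against that of the 2 RelB libraries at 6 h, for all 1860 sites with a peak in all 4 libraries (grey) and the 12 family sites (red), with the line of equal values dashed. The Fas promoter lies farthest above the line among family sites, at 4.61 for RelA and 3.18 for RelB, and Ngfr farthest below it, at 2.65 and 3.56.

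The genes that act below the receptors were counted in the same way, from a list of 30. A reproducible RelA peak lay within 50 kb of 17 (56.7%, all genes 13.9%), a reproducible RelB peak of 17 (all genes 14.6%), and both of 14 (46.7%, all genes 9.51%). Nfkbia, which encodes the inhibitor IκBα, had the most, with 8 and 7 RelA peaks and 6 and 9 RelB peaks. Tnfaip3 (A20, a ubiquitin-editing inhibitor) had 5 and 4 RelA peaks and 5 in both RelB libraries. Traf2, an adaptor of many TNF receptors, had 5 and 3 peaks for each antibody. Peaks of both antibodies were also reproducible at Traf1, Traf3, Tradd, the neighbouring cIAP genes Birc2 and Birc3, Cyld, Map3k14 (NIK), and the NF-κB genes Nfkb1, Nfkb2, Relb and Rel. Fadd, Rela and Rnf31 were called for RelA alone and Map3k7, Tab1 and Traf5 for RelB alone. Among these, Fadd and Rela also had RelB peaks in both libraries, and Map3k7 and Traf5 RelA peaks in both, that were not reproducible. Rela and Map3k7 each had 1 site with a peak in all 4 libraries, so these calls do not mean that the other antibody had no peak. Cflar, Rbck1, Ripk1, Tab2 and Traf6 had peaks that were not reproducible, and Casp8, Chuk, Ikbkb, Fam105b and Sharpin had no peak at 6 h. At 0 h, Nfkbia and Traf2 were the only genes of this list with a peak, each in the RelB lists.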

How the data were processed

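Per the study's methods, adapters were removed with cutadapt, bases of quality under 20 were trimmed, reads were aligned uniquely to mm9 with Bowtie, and peaks were called per library with cisGenome against NfkB2-/- input (windows of 200 bases, at least 4 reads, FDR under 0.1, fold over 2). The deposited peak lists give a q-value (FDR), a maximum fold, taken as log2 because none was at or under 1, where the stated fold limit lies on that scale, and read counts of ChIP and input. The input has no list of its own and was used only through these values. Whole-library depth is not given in the sources used here.

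Peaks were joined into sites by overlap of at least 1 bp and assigned to starts within 50 kb in the GENCODE M1 annotation (mm9). Where a symbol had several records the longest was kept. Peak counts were compared with an exact permutation test, and folds with limma. Both were tested on simulated data. The members, roles and gene lists were chosen with earlier results of these data known. Genes with a reproducible peak were named with their values, and all others by role. Alternatives were other distances, a stricter FDR or fold, a 200 bp gap between centres, other centring, a replicate block and leaving out each library. Giving each site to the nearest start only was added after the data were seen.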

Additional observations from a re-analysis of the deposited data

How the results depend on the processing

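The counts of family genes moved most with the distance. Within 10 kb of the start, 4 genes had a reproducible RelA peak (all genes 4.31%), 4 a RelB peak (4.18%), 3 both (2.65%), and 4 had more peaks in every 6 h library than in every 0 h library (3.41%). Within 100 kb these became 22 for RelB (all genes 26%) and 25 for the time comparison (24%). With the nearest start only they were 9 for RelA, 6 for RelB and 5 for both, with the shares of all genes given above. The number of sites called between RelA and RelB by limma was 11. It was 30 at FDR under 0.01 and ranged from 0 to 31 when 1 library was left out (0 without RelA replicate 1 or RelB replicate 2, 31 without RelA replicate 2), where the library left alone is assumed to vary like the other antibody's. With the replicate block it was 85 (41 higher for RelA, 44 for RelB). The sources used here do not say whether libraries with the same replicate number belong together. Deviations of same-numbered libraries did not go together across sites (r = -0.00256), but this correlation does not settle whether they were paired. Under the block the limma adjusted p at the Fas promoter was 0.00233. At the Fas promoter, the only family site that passed the threshold, the fitted difference kept its direction. Over 90 fits of single family sites under the alternatives, 7 differences changed sign, all at sites that were not called. The 200 bp gap between centres was not followed at single sites. The missing total depth and 2 libraries per group limit what an absent peak or an uncalled difference can show.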
